A study of Homo sapiens with 2 samples.

Results

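RBM47 is an RNA-binding protein with RNA recognition motifs. HITS-CLIP, in which RNA held to a protein by ultraviolet irradiation is recovered with that protein and sequenced, was used to map its contacts in MDA231-BrM2a cells. These cells are a non-clonal, brain metastatic derivative of the breast cancer line MDA-MB-231. Both libraries of the single group carried Flag-tagged wild-type RBM47 under a promoter switched on by doxycycline, given at 1 ng/ml for 3 days, so the contacts are those of an introduced protein. No control library was analysed here, and no conditions were compared.

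The loci described here carried only a placeholder name. A symbol made of LOC and digits is given to a gene record that has no name yet, and the digits are its Entrez gene number. Clusters are stretches of overlapping sequenced fragments, and each fragment is counted as a tag. Every deposited cluster whose gene symbol was LOC followed by digits alone was taken, which gave 1567 of 233546 clusters on 111 of 7712 genes. In all 111 symbols the digits equalled the listed Entrez number. The placeholder name no longer held for most of them, though a new name does not show that a locus has been characterised. By that number 103 symbols matched current RefSeq records, of which 20 still had a LOC symbol. The matched records were 69 long noncoding RNAs, 23 pseudogenes and 11 protein-coding genes, and 8 numbers were not matched.

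Long noncoding RNAs are transcripts without a known protein product. Many start close to a protein-coding gene and run in the opposite direction, and these divergent transcripts are often spliced inefficiently and kept in the nucleus. Pseudogenes are copies of genes that have lost the original function, and reads from them can be hard to tell from reads of the parent gene. Tags on a locus follow both how often RBM47 contacts an RNA and how much of that RNA there is. RNA levels were not measured in these libraries, and fewer cells with a transcript and less RNA per cell cannot be told apart in bulk cultures.

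The replicate 1 column summed to 999047 tags over all clusters and the replicate 2 column to 3489697. Tags on 6 of 6 mesenchymal or basal markers, which included VIM and CD44, summed to between 5.62 and 5.99 per 1000 tags of a replicate. Of 5 luminal markers, only ERBB3 was listed, with 6 tags, and ESR1, PGR, GATA3 and FOXA1 had no listed cluster. RBM47 itself had 395 replicate 1 tags and 1554 replicate 2 tags. The replicate columns can add up to more than the authors' total, which was so in 142 of the 1567 LOC clusters (9.06%), by at most 4 tags.

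The LOC loci were first measured as a group. They held 3717 tags in replicate 1 and 11795 tags in replicate 2, and 15341 tags by the authors' total. This was 0.472% of the gene-assigned tags of replicate 1 and 0.424% of those of replicate 2, or 0.448% ± 0.0344 (SD, n = 2). In clusters of at least 10 tags, a minimum the study used among others, the share was 0.292% ± 0.00787 (SD, n = 2). The median LOC cluster held 7 tags, with 2 in replicate 1 and 6 in replicate 2, and was 75 nt long. In 4216 clusters of 174 other long noncoding RNA genes the median was 8 tags and 82 nt. At least 10 tags were reached by 479 LOC clusters (30.6%), at least 30 tags by 50 (3.19%) and at least 100 tags by 1. In other long noncoding RNA genes 40.3% of clusters reached 10 tags and 8.85% reached 30, and in other protein-coding genes 41.8% and 10.4%. Shallow clusters were common in all 3 groups of genes.

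The tags were concentrated in few symbols. The first 5 held 40.2% of the LOC tags, the first 10 held 60.9% and the first 20 held 79.1%. The median symbol had 31 tags in 4 clusters, against 96 tags in 9 clusters over all genes. There were 32 symbols with a single cluster, and 51 symbols had no cluster of 10 tags. With clusters under 10 tags dropped, over 100 tags were left in 16 of 111 symbols (14.4%) and in 3074 of all 7712 genes (39.9%). Across the 111 symbols the replicates were ranked alike, with a Spearman's rho of 0.951 and a Pearson's r of 0.973 on log2(tags + 1). Over all 7712 genes the rho was 0.982. Cluster by cluster the replicates were ranked less alike. There the rho was 0.215 in LOC loci, 0.426 in other long noncoding RNA genes and 0.473 in other protein-coding genes. Symbols and clusters are not independent replicates and all share the same libraries, so these values carry no p-value.

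**Figure D1:**
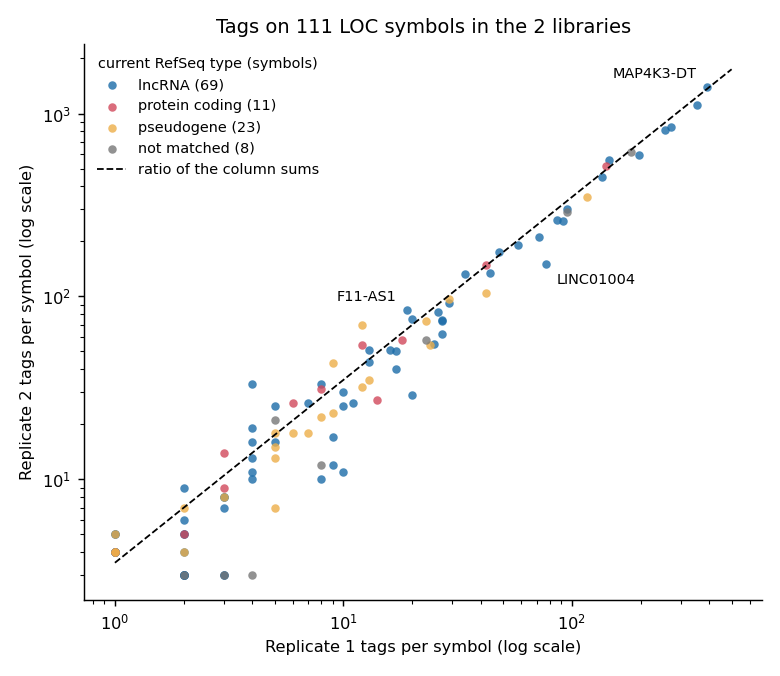
Tags on each of the 111 LOC symbols in replicate 1 (x axis, log scale) and replicate 2 (y axis, log scale), summed over all deposited clusters and coloured by current RefSeq type. The dashed line is the ratio of the column sums. Most symbols lie along it, and LINC01004, with 77 and 150 tags, lies below it.

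Summed over symbols, divergent transcripts, whose current symbols end in DT, held the most tags of any name class. The 16 of them had 4897 tags, 31.9% of the LOC tags, at 1.13 ± 0.0706 (SD, n = 2) per 1000 tags of a replicate. Introns held 98.2% of these tags. The symbol with the most tags was LOC728730, now MAP4K3-DT, which runs away from the gene of the protein kinase MAP4K3. It had 390 replicate 1 tags and 1392 replicate 2 tags in 112 clusters on the plus strand of chromosome 2, between 39537916 and 39681418 in hg18. Its rank was 390 of 7712 genes. Introns held 1760 of its 1774 tags, and its largest cluster, an intron cluster at 39573623 to 39573925, held 12 and 58 tags. LOC550112, now UBA6-DT, lies beside the gene of the ubiquitin-activating enzyme UBA6. It had 352 and 1107 tags in 182 clusters, the highest number of clusters among the LOC symbols. None of its clusters held over 25 tags, so its 1437 tags were spread thinly. LOC100508120, now GMDS-DT, is the neighbour of GMDS, an enzyme of GDP-fucose synthesis. It had 197 and 595 tags in 91 clusters. LOC339874 (NUDT16-DT) had 91 and 259 tags and LOC401320 (GARS1-DT) had 48 and 175 tags. These 5 divergent transcripts were named because they were among the LOC symbols with the most tags. In each library alone all 5 had more tags than the 31 that the median symbol had by the authors' total over both. This follows largely from that choice. Over all 16 divergent transcripts the median was 37 tags, and the lowest had 5.

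Clusters along a locus were uneven. In MAP4K3-DT, 94.9% of the tags lay in the first of 3 equal parts of the listed span of 143.5 kb, at 94.4% in replicate 1 and 95.1% in replicate 2. The longest stretch without a listed cluster was 37.4 kb. In GMDS-DT the first of the 3 parts held 65.0% of replicate 1 tags and 72.9% of replicate 2 tags. In UBA6-DT 55.4% of the tags lay in the middle one of the 3 parts. These spans run from the first to the last listed cluster in the direction of transcription, and their relation to the transcript's start is not given by the table.

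**Figure D2:**
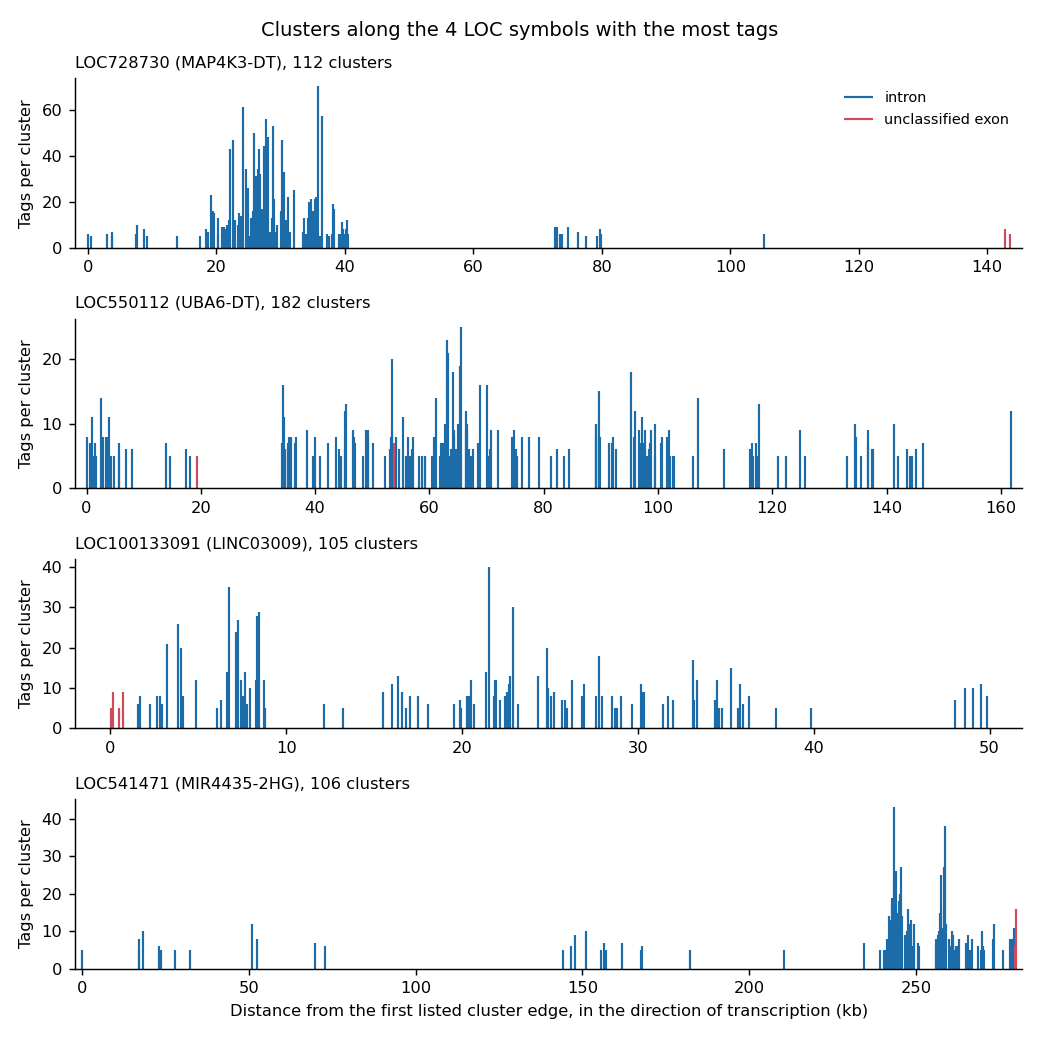
Tags per cluster (y axis, authors' total) against the distance in kb from the first listed cluster edge, in the direction of transcription, for the 4 LOC symbols with the most tags. Blue lines are intron clusters and red lines unclassified exon clusters. The clusters of MAP4K3-DT crowd into the first of 3 equal parts of its span and those of MIR4435-2HG into the last.

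The genes beside the divergent transcripts were examined next. Of the 16 divergent transcripts, 14 had a partner gene with listed clusters, all 14 on the opposite strand, and the listed spans of 0 pairs overlapped. The transcript had more tags than its partner in 2 of 14 pairs. MAP4K3-DT had 1774 tags against 598 on MAP4K3, which had 162 and 441 in the replicates. UBA6-DT had 1437 tags against 345 on UBA6, with 74 and 278 in the replicates. In both pairs the order was the same in each library. GMDS-DT was below GMDS, with 785 against 977 tags. At the other end, TMEM30A-DT had 22 tags and TMEM30A, a subunit of phospholipid flippases, had 6470. The short NIPBL-DT (LOC646719) had 116 tags against 535 on NIPBL, the cohesin loader. The partners differ in length, and these pairs were compared as tags per locus. Per kb of RefSeq gene length, the divergent transcript was higher in 5 of 14 pairs, one of which is UBA6-DT, whose RefSeq length is shorter than its listed span. On that scale the order turned for NIPBL-DT, at 21.7 tags per kb against 2.82 for NIPBL, and for GMDS-DT, at 4.68 against 1.57 for GMDS. It also turned for RAB30-DT (LOC100506233), which had 10 tags against 57 on RAB30 but 6.07 per kb against 0.577.

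Among 17 symbols now named as antisense RNAs, 839 tags were found. Per 1000 tags of a replicate this came to 0.195 ± 0.0155 (SD, n = 2). A partner with listed clusters was present for 11 of them, on the opposite strand in all 11 pairs, and 3 had more tags than the partner. Per kb of RefSeq gene length the antisense RNA was higher in 7 of the 11 pairs. LOC100131067 (CKMT2-AS1) led with 58 and 190 tags in 35 intron clusters, and CKMT2, a mitochondrial creatine kinase, had no listed cluster. LOC654433 (PAX8-AS1) had 26 and 82 tags, against 1 and 4 on the transcription factor gene PAX8. Every one of the 111 symbols had clusters on 1 strand.

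**Figure D3:**
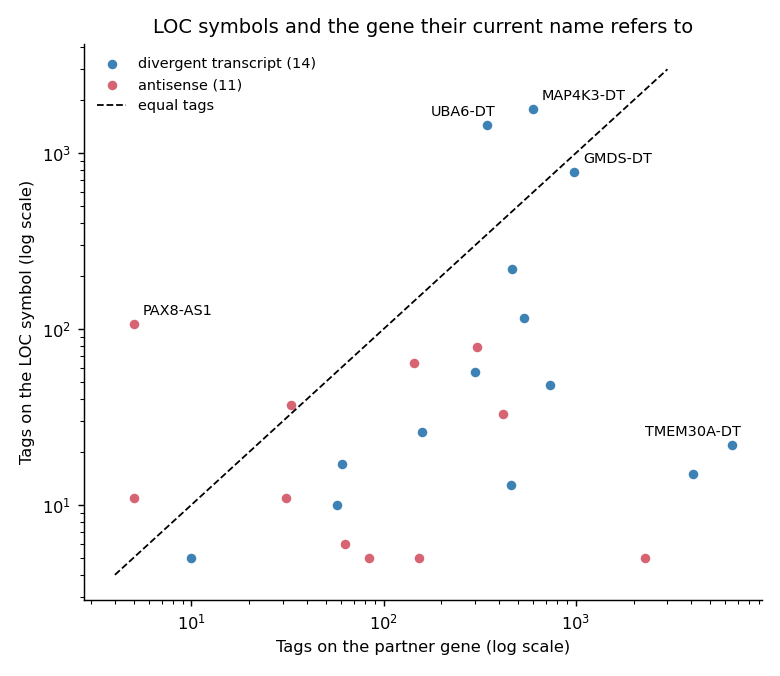
Tags on LOC symbols now named as divergent (14) or antisense (11) transcripts (y axis, log scale) against tags on the gene that the name refers to (x axis, log scale), for pairs in which both are listed. The dashed line marks equal tags. MAP4K3-DT, UBA6-DT and PAX8-AS1 lie above it, and TMEM30A-DT far below.

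LINC symbols, assigned to intergenic long noncoding RNAs, were the second name class, with 3487 tags on 17 symbols. LOC100133091 (LINC03009) had 272 and 840 tags in 105 clusters on the plus strand of chromosome 7, between 76019553 and 76069451. Unclassified exons, a label that the sources used here do not define, held 28 of its tags and introns the remainder. LOC729987 (LINC01776) had 135 and 452 tags in 64 clusters, all in introns, and 80.7% of the tags lay in the first of 3 equal parts of its span. LOC100506422 (LINC03106) had 95 and 302 tags. Clusters of 10 tags or more numbered 40 in LINC03009 and 23 in LINC01776.

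Host transcripts of microRNAs made up 4 symbols with 1150 tags, nearly all on LOC541471 (MIR4435-2HG). This symbol had 256 and 811 tags in 106 clusters on the minus strand of chromosome 2, between 111682376 and 111962255, and the last of 3 equal parts of that span held 85.6% of them. Introns held 103 of its 106 clusters. The other hosts were low, with 67 tags on LOC284757 (MIR646HG), 17 on LOC646762 (MIR550A3HG) and 7 on LOC100505738 (MIR4458HG). The mature microRNAs that give these hosts their names are shown because these loci are known by them. Sequences are from RefSeq on GRCh38.p14, 5′ to 3′, with the seed (bases 2 to 8) in capitals.
hsa-miR-4435: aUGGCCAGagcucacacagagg
hsa-miR-646: aAGCAGCUgccucugaggc
hsa-miR-4458: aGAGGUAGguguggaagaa
hsa-miR-550a-3p: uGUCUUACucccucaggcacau
hsa-miR-550a-3-5p: aGUGCCUGagggaguaagag
These 5 seeds differ from each other. The seed of hsa-miR-4458 is shared by 10 other mature microRNAs of the table, among them hsa-let-7a-5p, and those of hsa-miR-4435 and hsa-miR-646 by 0. The table of clusters does not say whether a tag lies on a hairpin, and the hairpins' positions belong to another build.

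The authors' location labels were then counted. Introns held 1358 LOC clusters on 92 symbols, and 58 symbols had intron clusters alone. Unclassified exons held 133 clusters on 38 symbols, 3'UTRs 49 on 11, coding sequence (CDS) 13 on 5 and 5'UTRs 2 on 2, and 12 clusters had more than 1 label. In clusters of at least 10 tags the intron share was 81.4% (Wilson 95% interval 77.7 to 84.6) and the unclassified exon share 11.9% (9.30 to 15.1). The 3'UTR share was 5.01% (3.39 to 7.35). In other long noncoding RNA genes the intron share was 82.6% (80.8 to 84.4), the unclassified exon share 11.96% (10.5 to 13.6) and the 3'UTR share 4.18% (3.33 to 5.24). These intervals overlapped those of the LOC loci. In other protein-coding genes introns held 37.1% (36.7 to 37.4) and 3'UTRs 36.3% (35.9 to 36.6). By tags per replicate, introns held 77.2% ± 0.46 (SD, n = 2) in the LOC loci and 18.8% ± 0.557 (SD, n = 2) in other protein-coding genes, a gap larger than the spread between replicates. In other long noncoding RNA genes the intron share of tags was 16.9% ± 0.369 (SD, n = 2) and the unclassified exon share 81.8% ± 0.32 (SD, n = 2). Without NEAT1 and MALAT1 the intron share of tags there was 80.6% ± 0.293 (SD, n = 2). Intervals cover counting error only. Clusters of a gene share its RNA, so no test over clusters was made.

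**Figure D4:**
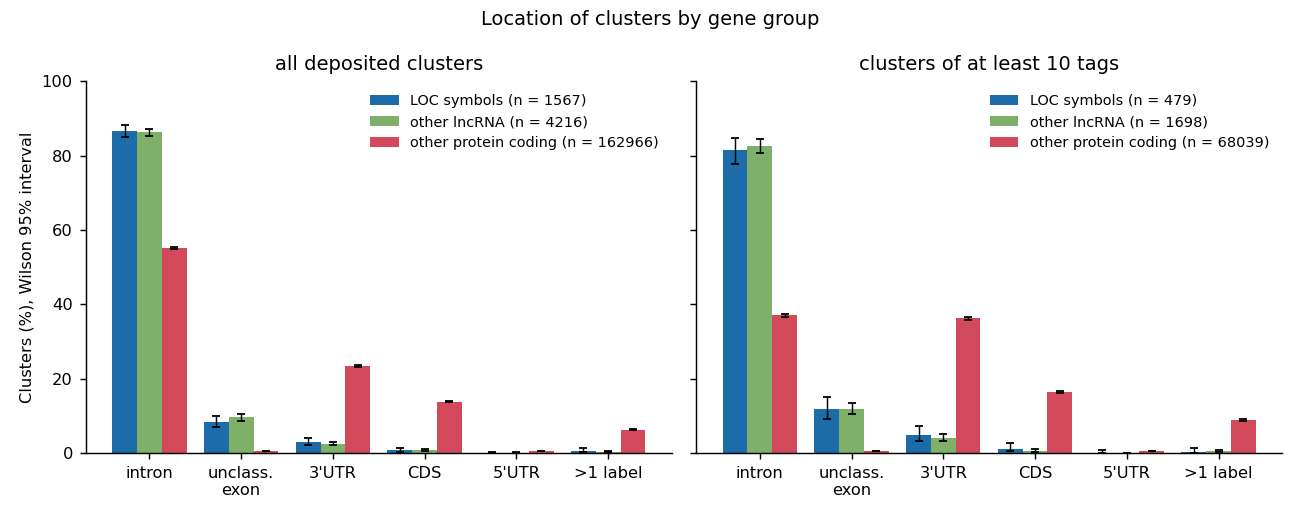
Share of clusters (y axis, %) by location label for LOC symbols, other long noncoding RNA genes and other protein-coding genes, in all deposited clusters (left) and in clusters of at least 10 tags (right). Bars start at 0 and error bars are Wilson 95% intervals. By count of clusters, introns hold 81.4% in LOC symbols and 82.6% in other long noncoding RNAs on the right, with overlapping intervals.

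In intron clusters of LOC loci, at least 30 tags were reached by 2.36%, against 7.78% in other long noncoding RNA genes and 3.23% in other protein-coding genes, and the medians were 7, 8 and 7 tags. The replicate 1 share of tags in LOC introns was 24.2% (Wilson 95% interval 23.5 to 25.0). In introns of other protein-coding genes it was 24.2% (24.1 to 24.3), and in those of other long noncoding RNA genes 23.4% (23.0 to 23.8). Over all labels the share was 24.0% (23.3 to 24.6) in LOC loci. It was 22.1% in other protein-coding genes and 21.7% in other long noncoding RNA genes. In 27 symbols with both intron and unclassified exon clusters, mean tags per cluster were higher in exons in 14 symbols, higher in introns in 12 and equal in 1. Over all LOC clusters, 42.9% of unclassified exon clusters and 28.7% of intron clusters held at least 10 tags, and 6.02% and 2.36% held at least 30. In LOC100294145, a long noncoding RNA on chromosome 6 that still has its LOC symbol, unclassified exons held 325 of 337 tags, the most of any LOC symbol. It had 86 and 262 tags in 21 clusters within 4.002 kb, at 32975476 to 32979478 on the plus strand.

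Loci with labels of coding structure were a small group. Labels with a UTR or CDS were carried by 40 clusters on 6 symbols that are now long noncoding RNAs and by 28 clusters on 7 symbols that are now protein-coding. LOC339524, now LINC01140, had 145 and 558 tags on the plus strand of chromosome 1 between 87237957 and 87348217. Clusters with such labels held 97.1% of its tags, and 594 tags lay in 3'UTR clusters. Its 3'UTR cluster at 87346988 to 87347575 was the largest of all LOC clusters, with 27 replicate 1 tags and 84 replicate 2 tags. The listed span of LOC339524 also holds 16 clusters assigned to HS2ST1, a heparan sulfate sulfotransferase, on the same strand, and is longer than the RefSeq record of LINC01140. Which transcript these tags belong to was not tested.

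LOC100288142 (NBPF20), of the neuroblastoma breakpoint family, had the most tags of the symbols now protein-coding, with 141 and 514. Introns held 38 of its 52 clusters, and its 62 tags in CDS clusters equalled those of LOC339524, the most in that class. Its 5'UTR cluster held 5 tags, as did that of LOC440434 (NPEPPSP1). Its span of 770.5 kb on chromosome 1 holds 105 clusters of other genes on the same strand, NBPF8, NBPF9 and NBPF12 among them. Family members are near-identical copies, so the assignment of these tags is uncertain. LOC550643 (NBDY), which encodes a microprotein of the mRNA decapping complex, had 42 and 148 tags, with 59 of 189 in unclassified exons. LOC100129361 (SMIM10L1) led the clusters with more than 1 label, with 31 tags in 4 clusters.

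**Figure D5:**
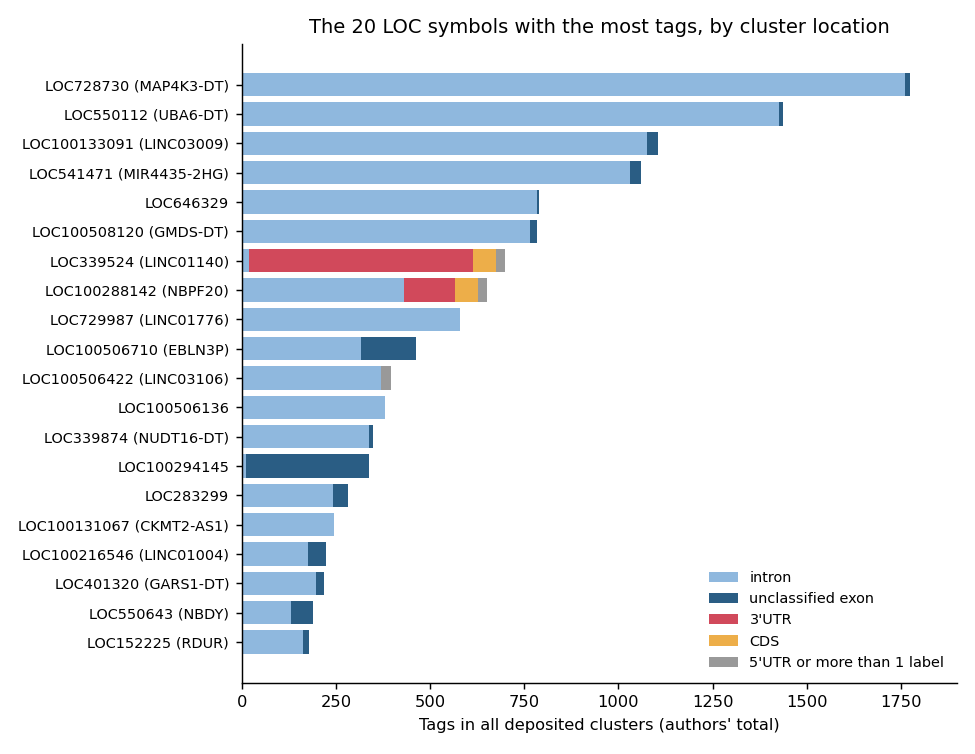
Tags in all deposited clusters (x axis, authors' total) on the 20 LOC symbols with the most tags, with the current symbol in brackets where it differs, stacked by location label. Introns (light blue) fill most bars, and LINC01140 (3'UTR, red) and LOC100294145 (unclassified exon, dark blue) stand apart.

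Pseudogenes were 23 symbols with 1343 tags, at 0.317 ± 0.0328 (SD, n = 2) per 1000 tags of a replicate. LOC100506710 (EBLN3P), derived from an ancient bornavirus gene, had 116 and 351 tags in 37 clusters on chromosome 9 at 37072062 to 37080377, and clusters covered 42.6% of that span. Unclassified exons held 146 of its 462 tags. LOC654342 (LSP1P4) had 42 and 105 tags and LOC645513 (SEPTIN7P14) 29 and 97. Tags on copies of parent genes are uncertain, since the study speaks of unique reads without saying whether this refers to a single match in the genome or to removed duplicates.

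Levels were compared between loci per kb of RefSeq gene length, on GRCh38.p14. A length was found for 103 symbols, and in 3 of them the listed clusters spanned more than that length, so 100 were kept. The median of these 100 was 1.38 tags per kb. Without that filter the median of the 103 was 1.51, against 2.37 over all 7669 genes with a length, LOC symbols included and also unfiltered. Among the 20 symbols with the most tags the order changed on this scale. EBLN3P had 44.0 tags per kb, LOC100294145 35.2, LINC01004 (LOC100216546) 23.7, LINC03009 14.1 and MAP4K3-DT 10.8. MIR4435-2HG had 3.54 and NBDY 2.10. The order of neighbouring loci was not tested.

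Of the other symbols among the first 20, LOC646329 and LOC100506136 had no match in RefSeq. LOC646329 had 181 and 618 tags in 74 clusters on chromosome 7 between 130218796 and 130248418, minus strand, and its largest cluster, at 130241485 to 130241772 with 17 and 43 tags, was the largest LOC cluster on the minus strand. LOC100506136 had 95 and 291 tags, all in introns. LOC283299, still under that symbol, had 72 and 211 tags, and LOC152225 (RDUR) had 44 and 135 tags in 26 clusters. All 4 of these were bound mainly in introns.

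The plus strand held 945 LOC clusters on 60 symbols and the minus strand 622 on 51. In clusters of at least 10 tags the plus share was 63.5% (Wilson 95% interval 59.1 to 67.7), against 54.1% (53.7 to 54.5) in other protein-coding genes and 29.1% (26.98 to 31.3) in other long noncoding RNA genes. Over all deposited clusters the plus share was 60.3%, and without the 5 symbols with the most tags it was 55.3%. By class, introns had 811 clusters on the plus strand and 547 on the minus strand, and unclassified exons 69 and 64. The 3'UTR label had 39 clusters on 8 plus strand symbols and 10 on 3 minus strand symbols. All 24 3'UTR clusters of at least 10 tags were on the plus strand. LOC339524 and LOC100288142 alone held 17 and 8 of the 39. Each symbol lay on 1 strand, so clusters of a symbol are not separate observations of strand, and the intervals do not allow for this.

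The split of tags between the libraries was tested last. Each cluster was given an exact binomial test, adjusted by Benjamini-Hochberg over the whole table. By it 0 of 1567 LOC clusters differed from the replicate 1 share of 22.3%, where 0.0111% of all clusters were called, 0.00128% for a higher replicate 1 share and 0.00985% for a higher replicate 2 share. At an unadjusted p under 0.05 there were 44 LOC clusters (2.81%), against 3.04% of all clusters. Even the LOC cluster with the lowest adjusted p, split as 1 and 50 tags, reached only 0.31 in this exact binomial test. The median LOC cluster held 7 tags, so the 0 calls do not show that the libraries agreed cluster by cluster. With the same test on tags summed per gene, 1 of 111 LOC symbols was called, where 1.7% of all 7712 genes were called, 0.765% for a higher replicate 1 share and 0.934% for a higher replicate 2 share. This was LINC01004 (LOC100216546), with 77 replicate 1 tags and 150 replicate 2 tags. Replicate 1 thus gave 33.9% of them (Wilson 95% interval 28.1 to 40.3), with an adjusted p of 0.0093 in the exact binomial test. The share was above 22.3% in 20 of its 25 clusters. It was 33.7% in introns and 34.7% in unclassified exons, so no single cluster or location carried the difference. The adjusted p was 0.24 under a beta-binomial test that allows for extra spread between the libraries. These tests compare 2 libraries and not conditions, and the study treats the replicates as biological without stating in the sources used here whether they came from separate cultures.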

How the data were processed

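The authors added poly(A) to the purified fragments, made cDNA with primers that held a degenerate stretch and an index for each replicate, and analysed the reads on Galaxy. Per the labels, the submitters' processing notes name Novoalign and hg18. Versions and settings are not given in the sources used here. The deposited table gives a count of tags in each cluster, by replicate and in total. The lowest values were 1 tag in either replicate and 5 in total, so column sums are not depths. In 538 clusters on chromosome 3 and 255 on chromosome 19 the end lay past the GRCh37 chromosome. No genome of the files' build was used, and no cluster sequence was read. Whether positions count from 0 or 1 is not known.

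Clusters were summed per gene. The LOC symbols, lists and tests were chosen with earlier results of these data known. Names and types came from RefSeq (GRCh38.p14) by Entrez number. Named were the 20 LOC symbols with the most tags, the leaders of each location class and strand, and those called by the exact binomial test. LOC646719, LOC654433 and others given as examples of a class were chosen after their values were seen. Wilson intervals are at 95%. The tests (Python 3.11.15, scipy 1.17.1) were tested on simulated data. Changes were planted there only in clusters or genes of at least 100 tags, so recovery in shallow clusters was not measured. Alternatives were tag minimums of 0, 30 and 100, merging of neighbours within 50 nt, weighting by tags, other label rules and expected shares, a beta-binomial test and each replicate left out.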

Additional observations from a re-analysis of the deposited data

How the results depend on the processing

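The tag minimum moved most values. With no minimum there were 1567 LOC clusters, with 30 tags 50 and with 100 tags 1, against 479 at 10 tags, and symbols with over 100 tags numbered 27 with no minimum and 5 at 30 tags, against 16. With no minimum the 3'UTR share was 3.13%, the intron share 86.7%, the unclassified exon share 8.49% and the LOC share of gene-assigned tags 0.448%. At 30 tags the 3 location shares were 18%, 64% and 16%. Weighted by tags the 3'UTR share was 8.79%, the intron share 77.2% and the plus strand share 68.2%. With only clusters whose replicate tags equal the total, the LOC share of tags was 0.336%. Introns were the largest class in each of these settings except at 100 tags, where the single cluster lay in a 3'UTR.

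With each replicate left out and 10 tags required in the other library, clusters ranged from 21 to 306, symbols with over 100 tags from 0 to 12, the share on the plus strand from 68.95% to 90.5% and the LOC share of tags from 0.0696% to 0.241%. By location, 3'UTRs then held 6.21% to 23.8% of clusters, introns 61.9% to 79.4% and unclassified exons 12.7% to 14.3%. Replicate 2 left out gave the more distant value throughout, as only 21 clusters then remained. Among 22118 clusters of at least 30 tags, 1 LOC cluster was called discordant, in LOC285441, with an adjusted p of 0.034 in the exact binomial test over fewer clusters. Over the alternatives on all clusters its adjusted p ranged from 0.31 to 0.80. The beta-binomial test called 0 LOC symbols and 6 of all genes. LINC01004 kept its call in the exact binomial test without any 1 of its 25 clusters, an alternative chosen after the data were seen, with adjusted p from 0.0019 to 0.028. In all, 42 alternatives were run, and 27 of them moved a value and 15 did not. A share inside its main interval or spread, or a count near the main one, was scored as not moved. By that rule 12 symbols with over 100 tags without replicate 1, against 16, did not count as moved. Turned directions were not scored. No paired analysis was possible because only 1 group was made. Single clusters are limited by depth, with a median of 2 tags in replicate 1.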

Other observations

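Several LOC symbols with few tags are now named for a described RNA, and those given here were picked with their values in view. LOC100507217 is now CHASERR, a noncoding RNA beside the chromatin remodeller gene CHD2, and had 4 replicate 1 tags and 33 replicate 2 tags in 4 intron clusters. The same stretch holds 4 clusters assigned to CHD2 on the same strand. LOC643401 is now PURPL, a p53-induced noncoding RNA, and had a single intron cluster with 2 and 3 tags. LOC100131060 is now JUN-DT, beside the gene of the AP-1 subunit JUN, and had 26 tags against 159 on JUN. LOC401397 is now SMIM30, which encodes a small membrane protein, and had 14 and 27 tags in 4 clusters, all labelled as unclassified exons.

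In LOC285441 (F11-AS1), also chosen after its values were seen, an intron cluster of 21 nt (chromosome 4, 187525834 to 187525855, minus strand) held 1 replicate 1 tag and 50 replicate 2 tags. This was 50.5% of the tags of the symbol. Its other 9 clusters had 5 to 7 tags each, with 18 replicate 1 tags and 34 replicate 2 tags. The cause was not tested.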
